A study of Saccharomyces cerevisiae with 14 samples.

Results

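The 34 genes described here encode nuclear subunits of the yeast respiratory chain and of the mitochondrial ATP synthase, together with a pair of small proteins that inhibit the synthase. They comprised 3 alternative NADH dehydrogenases, 9 subunits of the cytochrome bc1 complex, 7 of cytochrome c oxidase, 5 of the F1 part of the ATP synthase, 8 of its stalk and membrane-embedded Fo part, and 2 ATPase inhibitors. The members were the genes on this list for which a probe set carried the gene's name, 34 of the 5449 *Saccharomyces cerevisiae* genes named on the array and of the 5443 genes tested. Each member had 1 probe set. Transcripts of 3 strains were measured on 14 Affymetrix arrays. NFRI 3236 is a thermotolerant strain from a culture collection, NFRI 3155 is a thermosensitive strain from the same collection, and S288C served as the control strain. All were grown exponentially in rich glucose medium (YPD) and were either kept untreated at 30°C or placed at 39°C for 30 min. NFRI 3236 and NFRI 3155 had 2 arrays at each temperature and S288C had 3, although the methods speak of independently grown duplicates. P-values measure the spread between these arrays.

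In baker's yeast, electrons from NADH enter the chain through single-protein dehydrogenases rather than a proton-pumping complex I, pass from ubiquinone to cytochrome c through the cytochrome bc1 complex, and reach oxygen at cytochrome c oxidase. The ATP synthase uses the resulting proton gradient to make ATP. Transcripts of the chain are known to be low in abundant glucose and higher on non-fermentable carbon, and the ATPase inhibitors are known to block ATP hydrolysis by the synthase when the gradient is lost.

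Values are given as relative signals, that is, multiples of the 75th percentile of all probe sets on the same array. This percentile lay at a signal of 95.7 to 438 across the arrays. A probe set was counted as above background when it exceeded the 95th percentile of the probe sets for another yeast, *Schizosaccharomyces pombe*, on that array. All members were above background on 14 arrays except *NDE2*, which was below it on 1 S288C and 1 NFRI 3155 array at 30°C. The heat-shock genes *HSP26*, *SSA4* and *HSP104* rose in all 3 strains, with log2 changes of 2.00 to 9.10. The poly-A controls, RNAs spiked in during labelling, have 12 probe sets, of which 0, 0 and 1 exceeded background on the S288C arrays at 30°C and 8 to 12 on each of the other arrays. The same S288C arrays at 30°C had 3'/5' signal ratios of the control gene *ACT1* of 2.05, 1.96 and 1.84, against 1.16 to 1.58 on the others. The part of these array differences in the S288C heat response, and in other comparisons with these arrays, was not tested. One S288C array at 39°C (replicate 1) correlated at 0.960 and 0.961 with its replicates over all genes, where the other S288C pairs reached 0.984 to 0.989. The replicate pairs at 39°C of NFRI 3236 and NFRI 3155 were similarly low, at 0.968 and 0.962. One NFRI 3236 array at 39°C (replicate 2) had a 3'/5' signal ratio of the control gene *WBP1* of 10.9, against 1.41 to 5.86 on the others.

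The first question was how transcripts of these complexes responded to 39°C in each strain. Most of the subunits moved little. The members that rose by over 1 log2 unit in at least 1 strain were *STF1* and *INH1*, which encode the ATPase inhibitors, the external NADH dehydrogenase gene *NDE2*, and *QCR2* and *QCR10*, encoding a core protein and a small subunit of the bc1 complex. The falls that passed the test included *CYT1*, encoding cytochrome c1, and *NDE1*, encoding the other external NADH dehydrogenase, in both NFRI strains, and *ATP1*, encoding the alpha subunit of F1, in S288C and NFRI 3155. Falls of over 1 log2 unit were those of *CYT1*, of *QCR6* in the bc1 complex and of *COX9* in the oxidase, all in NFRI 3155.

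At 39°C 5 members were called higher and 3 lower in NFRI 3236 (limma, adjusted p under 0.05), which is 23.5% of the members beside 39.2% of all genes tested (15.7% higher and 23.5% lower). For S288C the calls were 9 higher and 5 lower, 41.2% beside 53.4% (25.2% higher and 28.2% lower), and for NFRI 3155 3 higher and 9 lower, 35.3% beside 42.2% (18.1% higher and 24.1% lower). Whether these shares differ was not tested. The median log2 change of the members was 0.03, 0.11 and -0.12 in NFRI 3236, S288C and NFRI 3155, where the median over all genes was -0.10, -0.04 and -0.08. Replicates of 1 group differed in the median over the members by an SD of 0.14. The arrays at 39°C did not overlap those at 30°C for 21, 18 and 22 members, or 61.8%, 52.9% and 64.7%, where 70.2%, 64.4% and 72.8% of all genes showed no overlap.

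These directions are relative to the 75th percentile of each array, and the split between rises and falls moved with the scaling. Without that shift the median change of all genes was higher by 0.84, 0.60 and 0.21 on the log2 scale in NFRI 3236, S288C and NFRI 3155, the rises numbered 9, 14 and 2, and no fall passed the limma test in any strain (0, 0 and 1 at an unadjusted p under 0.05). With quantile normalization the rises numbered 9, 14 and 7 and the falls 0, 3 and 4. Of the 5443 genes tested, 1486, 1839 and 591 rose and 121, 449 and 503 fell without the shift. With quantile normalization 956, 1405 and 1083 of all genes rose and 936, 1546 and 1161 fell. The rises of *NDE2*, *QCR10*, *ATP7*, *INH1* and *STF1* in NFRI 3236, of 9 members in S288C, and of *NDE2* and *STF1* in NFRI 3155 passed under all 3 scalings. Every fall of a member at 39°C named below is therefore a fall against the array's 75th percentile and lost its call without the shift. In NFRI 3155 the values moved little, with *CYT1* at -1.09 in place of -1.31, *QCR6* at -0.90 in place of -1.12 and *COX9* at -0.90 in place of -1.11.

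**Figure D1:**
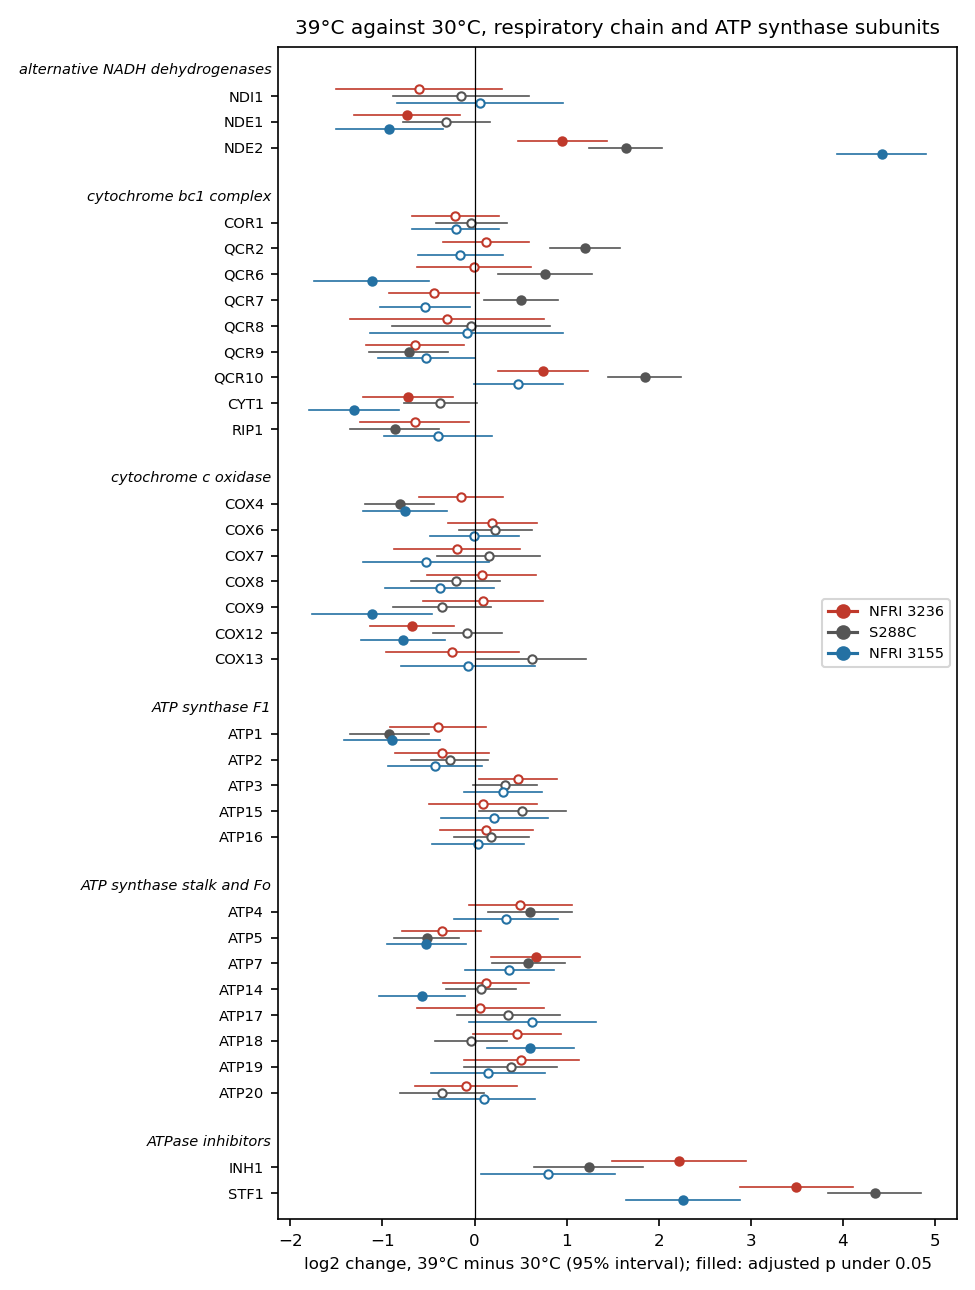
Log2 change at 39°C against 30°C (x axis) of the 34 members, grouped by complex, with a point and 95% interval for each strain. Filled points passed the test at an adjusted p under 0.05. *STF1*, *INH1* and *NDE2* lie furthest to the right, and most other points lie within 1 log2 unit of 0.

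Among the regulators of the ATP synthase, both inhibitor genes had higher relative signals at 39°C. *STF1* read 0.422 and 0.553 in NFRI 3236 at 30°C and 4.67 and 6.36 at 39°C. In S288C it read 0.462, 0.573 and 0.589 at 30°C and 14.2, 9.90 and 9.33 at 39°C. In NFRI 3155 it read 0.859 and 1.20, then 5.77 and 4.11. Every array at 39°C was thus well above every array at 30°C, in all strains, and NFRI 3155 started highest. *STF1* rose 11.3-fold, 20.3-fold and 4.81-fold in NFRI 3236, S288C and NFRI 3155, with log2 changes of 3.50 ± 0.29, 4.35 ± 0.23 and 2.26 ± 0.29 (SE, n = 2, 3 and 2 arrays per temperature) and limma adjusted p of 1.91e-06, 1.21e-08 and 4.08e-05. They remained past the threshold when any 1 array was left out.

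*INH1* encodes the other ATPase inhibitor. Its relative signal was 0.570 and 0.552 at 30°C and 1.85 and 3.69 at 39°C in NFRI 3236, 2.46, 2.15 and 2.31 against 7.33, 4.90 and 4.47 in S288C, and 1.14 and 1.90 against 2.32 and 2.81 in NFRI 3155. The arrays of the 2 temperatures did not overlap in any strain. The change was 4.66-fold in NFRI 3236 (log2 2.22 ± 0.34, adjusted p = 0.000254) and 2.36-fold in S288C (log2 1.24 ± 0.28, adjusted p = 0.00199), and both calls held without any 1 array. In NFRI 3155 the log2 change was 0.80 ± 0.34, which did not pass the limma test (adjusted p = 0.074).

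The alternative NADH dehydrogenases oxidise NADH on the matrix side (*NDI1*) or on the outer face of the inner membrane (*NDE1* and *NDE2*). *NDE2* had low relative signals of 0.0618 and 0.0626 in NFRI 3236 at 30°C and 0.129 and 0.113 at 39°C. In S288C it read 0.0517, 0.0623 and 0.0477, then 0.161, 0.170 and 0.171. In NFRI 3155 it went from 0.0403 and 0.0511 to 0.819 and 1.15. The levels at 30°C lay close together, and only the NFRI 3155 arrays at 39°C came near the 75th percentile of the array. The rise was 21.4-fold in NFRI 3155 (log2 4.42 ± 0.22, adjusted p = 1.99e-08), 3.12-fold in S288C (log2 1.64 ± 0.18, adjusted p = 7.15e-06) and 1.94-fold in NFRI 3236 (log2 0.95 ± 0.22, adjusted p = 0.00467). As 1 array each of S288C and NFRI 3155 was below background at 30°C, the folds in these strains rest on signals near the limit of the array, and with 16 added to each signal the NFRI 3236 change was 0.27 on the log2 scale and lost its call (adjusted p = 0.34).

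*NDE1* went the other way. It read 3.91 and 4.28 at 30°C and 3.25 and 1.85 at 39°C in NFRI 3236, 7.37, 6.60 and 6.73 against 6.44, 5.01 and 5.37 in S288C, and 10.6 and 11.6 against 4.89 and 6.93 in NFRI 3155. The temperatures did not overlap in any strain. The fall passed the limma test in NFRI 3155 (log2 -0.92 ± 0.27, adjusted p = 0.0135) and in NFRI 3236 (log2 -0.74 ± 0.27, adjusted p = 0.0432) but not in S288C (log2 -0.31 ± 0.22, adjusted p = 0.26). Both calls depended on single arrays: 10 of the 14 arrays, when left out, ended that in NFRI 3236 and 2 ended that in NFRI 3155, with adjusted p of up to 0.38 and 0.10.

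*NDI1* showed no change past the threshold. Its signal was 0.675 and 0.921 at 30°C and 0.710 and 0.379 at 39°C in NFRI 3236, 0.432, 0.508 and 0.535 against 0.242, 0.562 and 0.634 in S288C, and 2.04 and 1.84 against 1.63 and 2.51 in NFRI 3155. The temperatures overlapped in all strains, whereas all NFRI 3155 arrays lay above all others. Within each array, the ratio of *NDE2* to *NDE1*, which does not depend on scaling, rose by 1.69, 1.95 and 5.34 log2 units in NFRI 3236, S288C and NFRI 3155, and its lowest value at 39°C was above its highest at 30°C in all strains. This ratio restates the opposite changes of *NDE2* and *NDE1* and is no separate support.

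**Figure D2:**
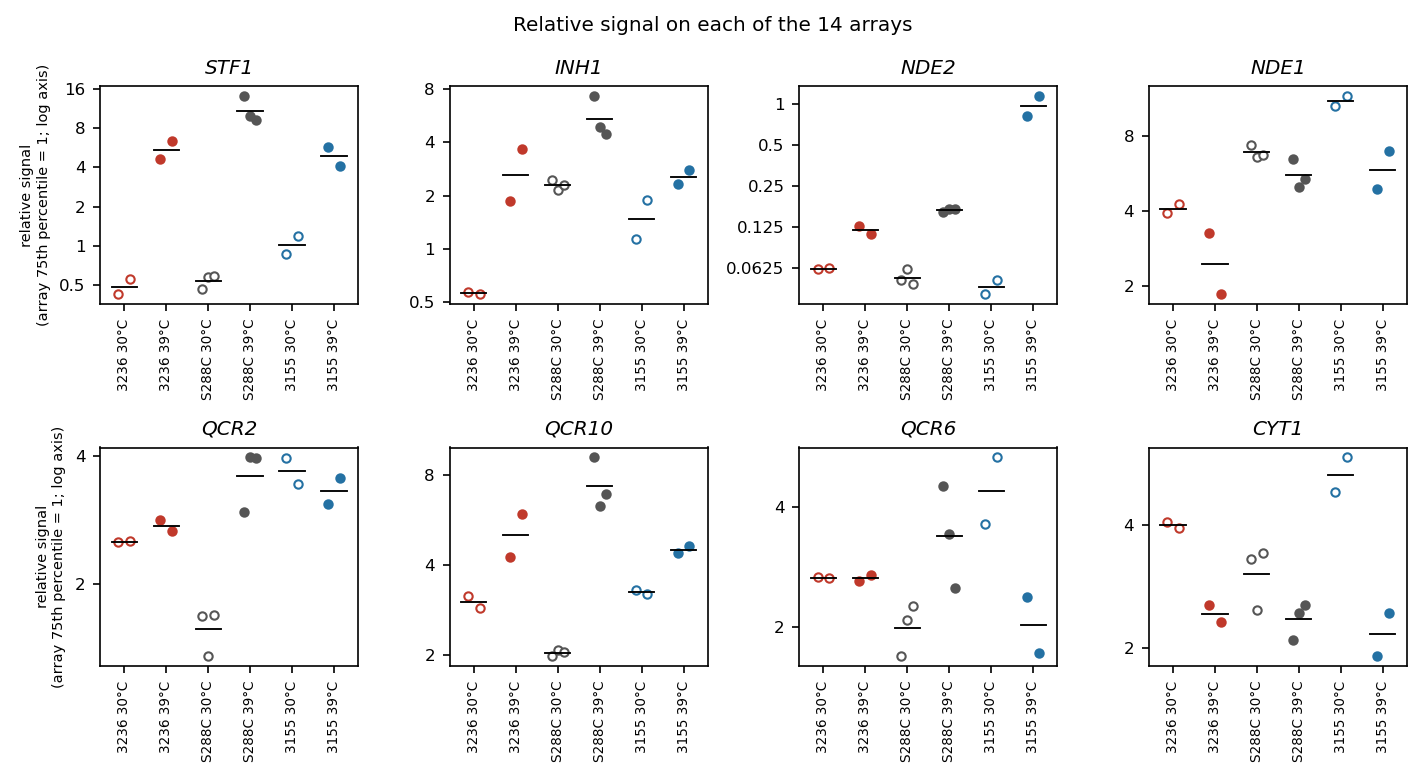
Relative signal (y axis, log scale, array 75th percentile = 1) of 8 members on each of the 14 arrays, by strain and temperature. Open points are 30°C, filled points 39°C, and lines are geometric means. *STF1* separates the temperatures in every strain, *NDE2* stands out in NFRI 3155 at 39°C, and *QCR2* and *QCR10* are lowest in S288C at 30°C.

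In the cytochrome bc1 complex the counts differed between strains. In S288C 4 of the 9 subunits rose and 2 fell, in NFRI 3236 1 rose and 1 fell, and in NFRI 3155 2 fell. Of all genes tested, 25.2% rose and 28.2% fell in S288C, 15.7% and 23.5% in NFRI 3236, and 18.1% and 24.1% in NFRI 3155. S288C thus had the most calls over all genes too, and the difference of the bc1 counts was not tested. The median log2 changes of the 9 genes were -0.04, -0.30 and -0.40 in S288C, NFRI 3236 and NFRI 3155.

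*QCR10* encodes a small subunit not needed for the catalytic core. It read 3.16 and 2.87 at 30°C and 4.27 and 5.94 at 39°C in NFRI 3236, 1.99, 2.08 and 2.06 against 9.17, 6.33 and 6.91 in S288C, and 3.30 and 3.20 against 4.39 and 4.64 in NFRI 3155. The arrays at 39°C were higher than those at 30°C in every strain, most widely in S288C, where the level at 30°C was the lowest. Its change was 3.61-fold in S288C (log2 1.85 ± 0.18, adjusted p = 2.44e-06) and 1.67-fold in NFRI 3236 (log2 0.74 ± 0.22, adjusted p = 0.0186), and the log2 change of 0.48 ± 0.22 in NFRI 3155 did not pass (adjusted p = 0.11). The NFRI 3236 call was lost without any 1 of 3 arrays (adjusted p up to 0.15).

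*QCR2*, encoding a core protein of the complex, read 1.68, 1.36 and 1.69 in S288C at 30°C and 2.95, 3.98 and 3.97 at 39°C. In NFRI 3236 it read 2.51 and 2.52, then 2.83 and 2.67, and in NFRI 3155 3.96 and 3.45, then 3.10 and 3.57. The S288C arrays at 30°C lay below all other arrays. The S288C rise was 2.30-fold (log2 1.20 ± 0.18, adjusted p = 7.95e-05), and the log2 changes of 0.13 ± 0.22 and -0.15 ± 0.22 in NFRI 3236 and NFRI 3155 did not pass.

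*QCR6*, encoding an acidic subunit that sits near cytochrome c1, was the only member that rose in 1 strain and fell in another. It read 1.69, 2.08 and 2.25 against 4.51, 3.42 and 2.51 in S288C, 3.64 and 5.33 against 2.39 and 1.73 in NFRI 3155, and 2.67 and 2.66 against 2.61 and 2.70 in NFRI 3236. The log2 change was 0.76 ± 0.24 in S288C (adjusted p = 0.015) and -1.12 ± 0.29 in NFRI 3155 (adjusted p = 0.00698), and each call was lost when either of 2 arrays was left out, with adjusted p of up to 0.065 and 0.084. *QCR7*, encoding a subunit on the matrix side, read 8.98, 8.84 and 8.18 against 14.9, 13.2 and 9.51 in S288C, 12.0 and 10.6 against 8.15 and 8.50 in NFRI 3236, and 10.3 and 11.6 against 8.15 and 6.95 in NFRI 3155. Its S288C arrays were higher at 39°C and its NFRI arrays lower, and the S288C change of 0.51 ± 0.19 was called (adjusted p = 0.0337) but was lost without any 1 of 5 arrays (adjusted p up to 0.11).

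*CYT1* encodes the subunit that hands electrons to cytochrome c. It read 4.08 and 3.94 against 2.54 and 2.31 in NFRI 3236, 3.30, 2.47 and 3.41 against 2.09, 2.43 and 2.55 in S288C, and 4.84 and 5.88 against 1.91 and 2.44 in NFRI 3155. The temperatures were separate in the NFRI strains and overlapped in S288C. The log2 change was -1.31 ± 0.23 in NFRI 3155 (adjusted p = 0.000455), which held without any 1 array, and -0.73 ± 0.23 in NFRI 3236 (adjusted p = 0.0214), which did not hold without any 1 of 3 arrays (adjusted p up to 0.096). The within-array ratio of *QCR10* to *CYT1* rose by 1.47, 2.22 and 1.78 log2 units in NFRI 3236, S288C and NFRI 3155, with no overlap between temperatures. Both genes were picked for the size of their changes in these data. The ratio therefore restates those changes without the scaling and is no separate support.

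*RIP1* encodes the Rieske iron-sulphur protein and is the only member for which the array also holds control probe sets, at the 5' end, middle and 3' end of the transcript. On the gene's own probe set it read 4.43, 2.76 and 2.88 against 1.44, 1.97 and 2.05 in S288C, 6.60 and 8.17 against 4.39 and 4.997 in NFRI 3236, and 9.72 and 10.2 against 6.51 and 8.80 in NFRI 3155. The arrays at 39°C were lower in every strain, and the S288C log2 change of -0.86 ± 0.22 passed (adjusted p = 0.00539). The 5', middle and 3' control probe sets gave -0.20, -0.18 and -0.31 for the same comparison. On each of them the S288C arrays at 39°C overlapped those at 30°C. A fall that separated the temperatures in S288C was thus seen only on the gene's own probe set. In NFRI 3236 the control probe sets gave -0.59, -0.53 and -0.83 beside -0.65 on the gene probe set, a closer match.

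**Figure D3:**
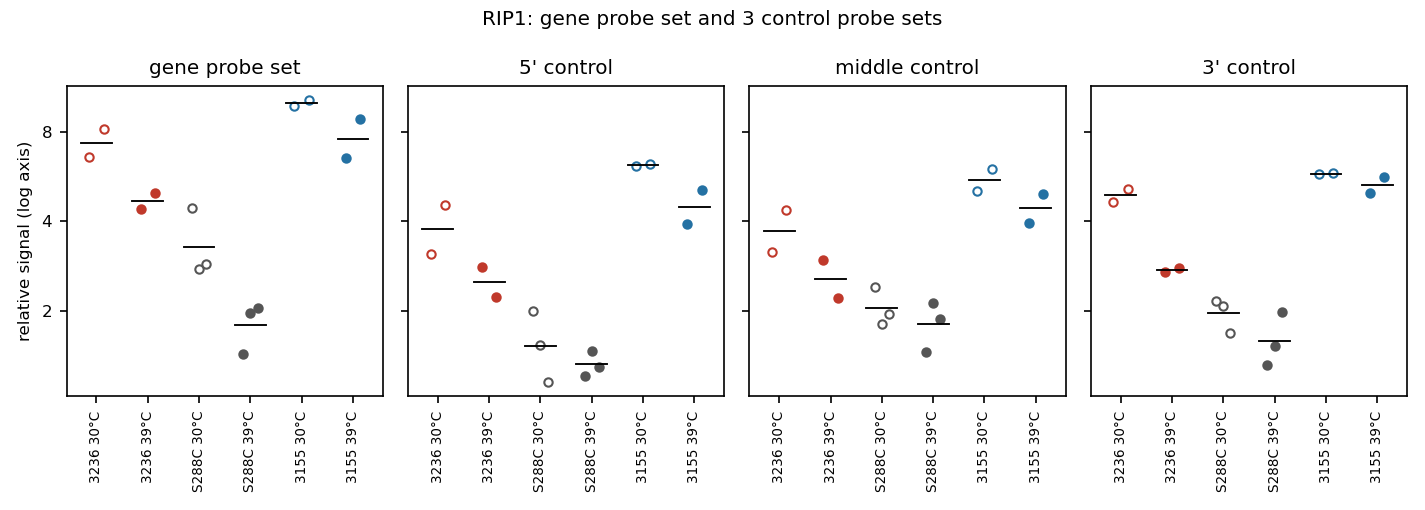
Relative signal (y axis, log scale) of the *RIP1* gene probe set and its 3 control probe sets on each of the 14 arrays, with open points at 30°C, filled points at 39°C and lines at geometric means. All 4 probe sets are lowest in S288C and highest in NFRI 3155. On the control probe sets the S288C fall at 39°C is smaller and the temperatures overlap.

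*QCR8*, encoding a ubiquinone-binding subunit, had the smallest mean change of the complex. It read 13.1 and 9.69 against 9.45 and 8.85 in NFRI 3236, 9.99, 9.84 and 8.85 against 3.88, 15.8 and 13.0 in S288C, and 11.0 and 10.7 against 12.6 and 8.25 in NFRI 3155. The S288C array that correlated least with its replicates gave the value of 3.88, far below the others. Its S288C log2 change was -0.04 ± 0.40 (adjusted p = 0.93) and became 0.59 (adjusted p = 0.035) without that array. *QCR9*, encoding a small subunit next to cytochrome c1, fell in S288C (log2 -0.72 ± 0.20, adjusted p = 0.00858), with -0.65 and -0.53 in NFRI 3236 and NFRI 3155 not past the threshold. *COR1*, the other core protein gene, had log2 changes of -0.21, -0.04 and -0.20, none called.

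Cytochrome c oxidase subunits were mostly unchanged in the test, and the calls that were made were falls. They numbered 1 of 7 in NFRI 3236, 1 in S288C and 3 in NFRI 3155, where the median log2 change of the 7 was -0.53. Of all genes tested, 23.5%, 28.2% and 24.1% fell in NFRI 3236, S288C and NFRI 3155. *COX4*, encoding a zinc-binding subunit, read 5.02 and 5.41 against 4.07 and 5.43 in NFRI 3236, 7.05, 6.65 and 6.68 against 3.92, 3.94 and 3.74 in S288C, and 5.92 and 7.96 against 4.31 and 3.82 in NFRI 3155. The S288C arrays fell into tight and separate groups, while those of NFRI 3236 overlapped. The log2 change was -0.81 ± 0.17 in S288C (adjusted p = 0.00141), which held without any 1 array, and -0.76 ± 0.21 in NFRI 3155 (adjusted p = 0.0109), which was lost without either of 2 arrays.

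*COX9*, encoding a small membrane subunit, read 4.89 and 4.20 against 4.11 and 5.65 in NFRI 3236, 6.74, 5.74 and 6.19 against 6.76, 4.50 and 3.74 in S288C, and 4.55 and 7.66 against 2.73 and 2.73 in NFRI 3155. Its fall in NFRI 3155 (log2 -1.11 ± 0.30, adjusted p = 0.00952) was lost without 1 array. *COX6*, encoding a subunit on the matrix side, changed least, with 5.55 and 5.77 against 6.86 and 6.11, 6.78, 6.54 and 6.40 against 7.22, 8.56 and 7.36, and 5.89 and 6.66 against 7.85 and 4.99 in NFRI 3236, S288C and NFRI 3155. None of its log2 changes of 0.19, 0.23 and 0.00 was called, and their 95% intervals ran from -0.49 to 0.68. *COX12*, encoding a subunit on the intermembrane-space side, fell in NFRI 3236 (log2 -0.68 ± 0.21, adjusted p = 0.0213) and NFRI 3155 (log2 -0.77 ± 0.21, adjusted p = 0.00983), with -0.08 in S288C. Leaving out any 1 of 4 arrays ended the NFRI 3236 call of *COX12* and any 1 of 2 that in NFRI 3155 (adjusted p up to 0.10 and 0.082). The remaining subunit genes *COX7*, *COX8* and *COX13* had no call.

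In the ATP synthase itself, the median log2 changes in NFRI 3236, S288C and NFRI 3155 were 0.09, 0.18 and 0.04 for the 5 genes of the F1 head and 0.30, 0.22 and 0.24 for the 8 of the stalk and Fo part, and both parts held genes above and below 0. Of the F1 genes only *ATP1* passed in any strain, and it fell. It read 15.7 and 14.2 against 11.8 and 10.9 in NFRI 3236, 19.8, 15.6 and 17.8 against 11.5, 8.72 and 8.01 in S288C, and 15.4 and 16.8 against 7.14 and 10.5 in NFRI 3155. The temperatures did not overlap in any strain. The log2 change was -0.92 ± 0.20 in S288C (adjusted p = 0.00149), -0.90 ± 0.24 in NFRI 3155 (adjusted p = 0.00904) and -0.40 ± 0.24 in NFRI 3236 (adjusted p = 0.21), and leaving out either of 2 arrays ended the NFRI 3155 call (adjusted p up to 0.082).

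*ATP16*, encoding the delta subunit, changed least of the synthase genes. It read 5.75 and 6.44 against 5.65 and 7.85 in NFRI 3236, 8.16, 7.40 and 7.75 against 10.9, 8.15 and 7.70 in S288C, and 6.98 and 7.15 against 8.13 and 6.48 in NFRI 3155. The temperatures overlapped in all strains, with log2 changes of 0.13, 0.18 and 0.04. *ATP2*, *ATP3* and *ATP15*, encoding the beta, gamma and epsilon subunits, ranged from -0.43 to 0.52 and had no call.

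*ATP7*, encoding subunit d of the peripheral stalk, rose where *ATP1* did not. It read 3.72 and 3.41 against 5.40 and 5.91 in NFRI 3236, 5.91, 6.27 and 6.15 against 10.9, 9.85 and 7.15 in S288C, and 3.21 and 3.74 against 4.94 and 4.09 in NFRI 3155. The temperatures did not overlap in any strain. The log2 change was 0.66 ± 0.22 in NFRI 3236 (adjusted p = 0.0317), 0.58 ± 0.18 in S288C (adjusted p = 0.0165) and 0.38 ± 0.22 in NFRI 3155 (adjusted p = 0.20), and both calls were lost when 1 of a few arrays was left out (4 arrays and 2 arrays, adjusted p up to 0.14 and 0.057). Within arrays the ratio of *ATP7* to *ATP1* rose by 1.07, 1.51 and 1.27 log2 units in NFRI 3236, S288C and NFRI 3155, and the ratio of *STF1* to *ATP1* by 3.90, 5.27 and 3.16, with no overlap of temperatures in any strain. *ATP7* and *ATP1* were picked for the size of their changes in these data, so these ratios are no separate support.

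Other stalk and Fo genes with a call were *ATP4* (subunit b), which rose in S288C (log2 0.60 ± 0.21), *ATP18* (subunit i/j), which rose in NFRI 3155 (log2 0.61 ± 0.22), *ATP5* (the oligomycin-sensitivity protein), which fell by 0.52 on the log2 scale in both S288C and NFRI 3155, and *ATP14* (subunit h), which fell by 0.57 in NFRI 3155. Adjusted p lay between 0.0155 and 0.0485, and each of these calls was lost without any 1 of at least 2 arrays. *ATP17*, *ATP19* and *ATP20*, encoding subunits f, k and g, ranged from -0.35 to 0.63 and had no call.

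The study set out to compare strains of different thermotolerance, so the heat responses were compared directly, as a difference of log2 changes. The 3 comparisons share strains and are not independent of each other. S288C and NFRI 3155 differed in 7 of 34 members, 20.6% beside 16.5% of all genes (8.87% higher and 7.64% lower in S288C). The S288C response was higher for *QCR2* (1.35 ± 0.28, adjusted p = 0.00732), *QCR6* (1.88 ± 0.37, adjusted p = 0.00591), *QCR7* (1.05 ± 0.29, adjusted p = 0.0284), *QCR10* (1.37 ± 0.29, adjusted p = 0.00802), *CYT1* (0.94 ± 0.29, adjusted p = 0.0437) and *STF1* (2.08 ± 0.37, adjusted p = 0.00338). For *NDE2* it was lower by a difference of -2.78 ± 0.29 (adjusted p = 0.000166). Of these 7 differences, 5 are in the 9 subunits of the cytochrome bc1 complex, a share that was not tested. The *QCR7* and *CYT1* calls were lost without any 1 of 7 and 10 arrays. Those of *NDE2*, *QCR2*, *QCR6*, *QCR10* and *STF1* held without any 1 array, and those of *QCR6*, *STF1* and *NDE2* also held under all 3 scalings.

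NFRI 3236 and S288C differed in 2 members, 5.88% beside 10.1% of all genes (4.30% higher and 5.82% lower), both with the lower response in NFRI 3236. They were *QCR2* (-1.07 ± 0.28, adjusted p = 0.0302) and *QCR10* (-1.11 ± 0.29, adjusted p = 0.0311), and each call was lost when 1 of several arrays was left out and also without the 75th percentile shift. Between NFRI 3236 and NFRI 3155 only *NDE2* differed, with a value of -3.47 ± 0.32 (adjusted p = 0.000325), 2.94% of members beside 2.50% of all genes (0.735% higher and 1.76% lower). This difference held without any 1 array and under all 3 scalings. For *INH1* the strain with the largest rise, NFRI 3236, did not differ past the threshold from S288C (0.98 ± 0.44, adjusted p = 0.16) or from NFRI 3155 (1.43 ± 0.48, adjusted p = 0.15).

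Levels already differed between the strains at 30°C. Relative to S288C, transcripts of the bc1 complex were higher in NFRI 3155, with all 9 log2 differences above 0 and 5 past the test. Of the 8 genes of the stalk and Fo part, 4 were called lower in NFRI 3236 (*ATP4*, *ATP7*, *ATP14* and *ATP18*). Without the 75th percentile shift these 4 were at 0.063, 0.12, 0.046 and 0.14 and were not called. Each of these calls was also lost without any 1 of at most 3 arrays. *ATP20* went the other way, with 5.07 and 4.97 in NFRI 3236 at 30°C against 3.34, 3.68 and 3.89 in S288C. Over all members, NFRI 3236 had 3 higher and 6 lower than S288C (26.5% beside 29.2% of all genes, 15.4% higher and 13.8% lower), NFRI 3155 had 9 higher and 3 lower than S288C (35.3% beside 30.2%, 16.3% higher and 13.9% lower), and NFRI 3236 had 4 lower than NFRI 3155 (11.8% beside 8.91%, 4.45% higher and 4.46% lower). Without the 75th percentile shift, which moved the median of all genes by 0.90, 1.11 and -0.21 in these comparisons, the counts were 10 higher and 1 lower, 26 higher and 0 lower, and 1 lower. With quantile normalization the comparison of NFRI 3236 with S288C gave 1 higher and 9 lower. Over all 5443 genes, omitting the shift gave 2394 higher and 106 lower, 3159 and 118, and 82 and 110 in the 3 comparisons. Quantile normalization gave 676 higher and 749 lower of all genes for NFRI 3236 against S288C. Probes and strains may differ in sequence, which cannot be told apart from a difference in transcript level.

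The largest differences at 30°C were in *INH1*, *NDI1* and *RIP1*, whose values on each array are given above. *INH1* was 0.244 times the S288C level in NFRI 3236 (log2 -2.04 ± 0.31, adjusted p = 0.000384) and was also lower than in NFRI 3155 (log2 -1.39 ± 0.34, adjusted p = 0.0199). At 39°C the difference from S288C was -1.06 ± 0.31 (adjusted p = 0.0219), but 0.08 without the 75th percentile shift, whereas the difference at 30°C from S288C passed under all 3 scalings. *NDI1* was 3.96-fold higher in NFRI 3155 than in S288C (log2 1.99 ± 0.38, adjusted p = 0.00184), and 4.58-fold higher at 39°C (log2 2.19 ± 0.38, adjusted p = 0.000611).

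*RIP1* was 3.04-fold higher in NFRI 3155 (log2 1.60 ± 0.25, adjusted p = 0.000419) and 2.24-fold higher in NFRI 3236 (log2 1.16 ± 0.25, adjusted p = 0.00427) than in S288C. The 5', middle and 3' control probe sets of *RIP1* gave 2.02, 1.43 and 1.55 for NFRI 3155 and 1.30, 0.86 and 1.31 for NFRI 3236, so 4 probe sets gave the same direction. *QCR2* was also higher in both NFRI strains (log2 1.24 ± 0.20 in NFRI 3155 and 0.68 ± 0.20 in NFRI 3236), as was *COX12* (0.63 and 0.61). *ATP7* and *ATP18* were lower in both, by log2 differences of -0.82 and -0.57 in NFRI 3155 and -0.78 and -0.76 in NFRI 3236, relative to the 75th percentile. Without the shift these 4 differences were above 0. *NDE1* was 0.371 times the NFRI 3155 level in NFRI 3236 (log2 -1.43 ± 0.27, adjusted p = 0.00372). The calls that held without any 1 array were *INH1* for NFRI 3236 against S288C, *NDI1*, *QCR2* and *RIP1* for NFRI 3155 against S288C, and *NDE1* for NFRI 3236 against NFRI 3155.

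**Figure D4:**
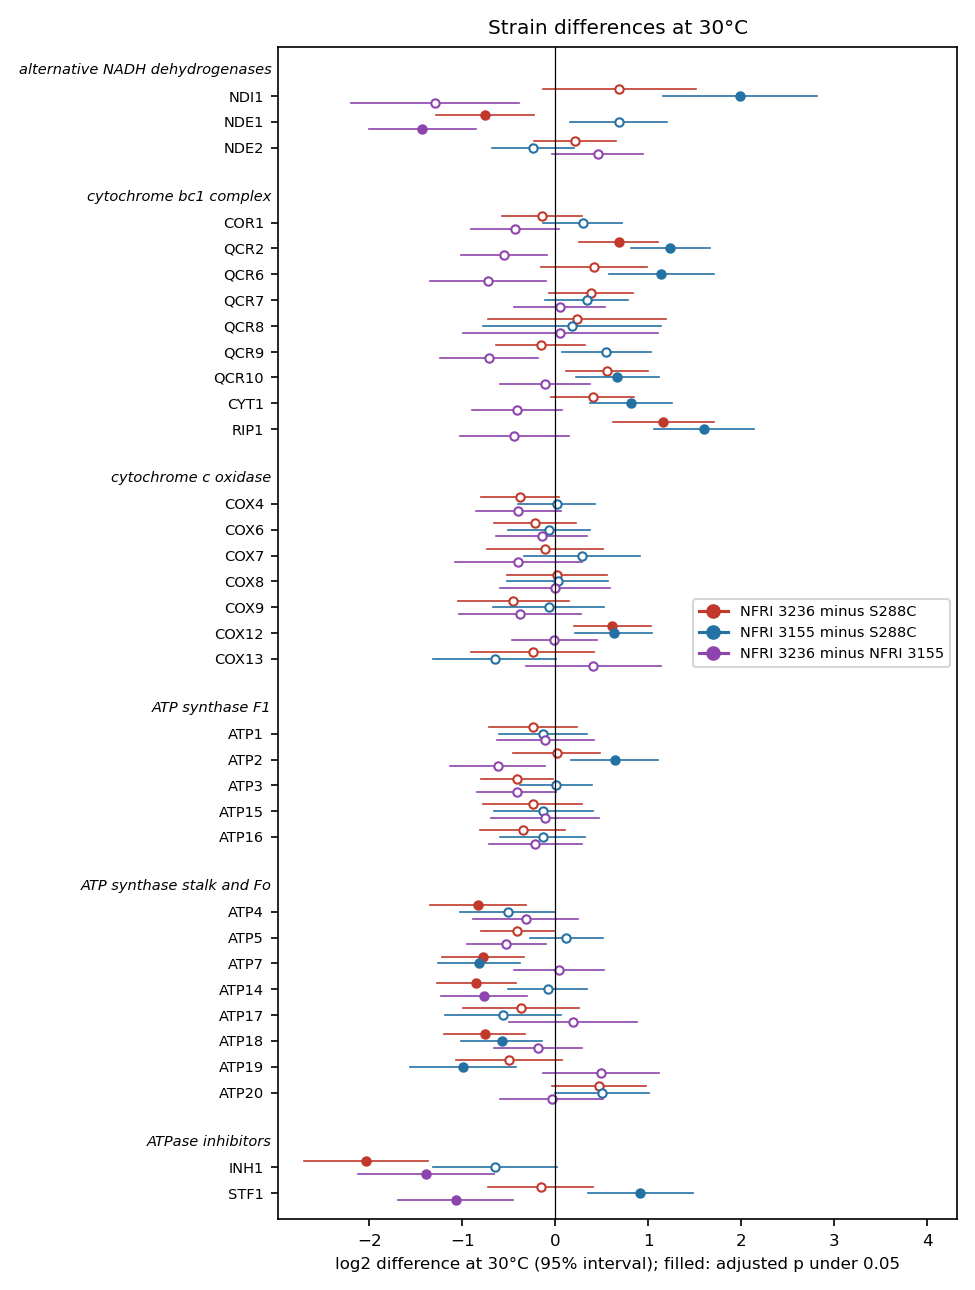
Log2 difference between strains at 30°C (x axis) of the 34 members, grouped by complex, with a point and 95% interval for each pair of strains. Filled points passed the test at an adjusted p under 0.05. *NDI1* and *RIP1* lie to the right for NFRI 3155 against S288C, and *INH1* lies furthest to the left for NFRI 3236 against S288C.

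At 39°C NFRI 3236 had 2 members higher and 7 lower than S288C (26.5% beside 28.0% of all genes, 13.1% higher and 14.9% lower), NFRI 3155 had 5 higher and 11 lower than S288C (47.1% beside 44.7%, 21.6% higher and 23.1% lower), and NFRI 3236 had 4 lower than NFRI 3155 (11.8% beside 20.4%, 9.65% higher and 10.7% lower). *NDE2* gave the largest differences, with NFRI 3155 5.81-fold above S288C (log2 2.54 ± 0.20, adjusted p = 1.83e-06) and NFRI 3236 at 0.124 times NFRI 3155 (log2 -3.01 ± 0.22, adjusted p = 1.41e-06). *COX13*, encoding a small oxidase subunit, was lower than in S288C in both NFRI 3155 (-1.34 ± 0.31) and NFRI 3236 (-1.10 ± 0.31). Without the 75th percentile shift no member was lower than S288C past the limma test in either NFRI strain (0 and 0 at an unadjusted p under 0.05), and the *COX13* value in NFRI 3236 was 0.03. Of all 5443 genes, 104 in NFRI 3236 and 217 in NFRI 3155 were then lower than in S288C.

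Other genes that serve the chain also rose. Of 83 such genes listed, 75 were measured, and the mitochondrially encoded subunits and *COQ7* were not analysed here. At 39°C 28, 24 and 31 rose in NFRI 3236, S288C and NFRI 3155, while 4, 9 and 6 fell. The rises were 37.3%, 32.0% and 41.3% of these genes, beside 15.7%, 25.2% and 18.1% of all genes tested. The median log2 changes of the 75 genes were 0.52, 0.20 and 0.59. Without the 75th percentile shift the rises numbered 43, 32 and 14 and the falls 1, 2 and 1, where 1486, 1839 and 591 of all 5443 genes rose. Of 23 genes for the assembly of cytochrome c oxidase, 10, 9 and 13 rose and 0, 3 and 0 fell in NFRI 3236, S288C and NFRI 3155, while none of the 7 oxidase subunits among the members was called higher by limma (0, 1 and 0 at an unadjusted p under 0.05, and 2 in S288C with quantile normalization). The difference between the lists was not tested. *PET117*, an assembly factor gene, rose 3.85-fold, 3.39-fold and 4.18-fold, and *CBP4*, for assembly of the bc1 complex, rose 2.83-fold, 1.57-fold and 8.24-fold, the S288C rise losing its call without either of 2 arrays (adjusted p up to 0.060). *STF2*, whose product is known as a stabilising factor for the ATPase inhibitors, rose 5.63-fold, 12.6-fold and 9.18-fold.

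Subunits that yeast encodes as alternative isoforms changed by different amounts at 39°C. *COX5B* and *CYC7*, the isoforms of oxidase subunit V and cytochrome c known from low-oxygen growth, stand against *COX5A* and *CYC1*. *COX5B* read 1.12 and 0.984 against 1.97 and 2.75 in NFRI 3236, 2.18, 2.91 and 2.56 against 10.5, 6.73 and 6.46 in S288C, and 0.594 and 0.872 against 5.31 and 3.19 in NFRI 3155. The within-array ratio of *COX5B* to *COX5A* rose by 1.57, 2.41 and 3.54 log2 units in NFRI 3236, S288C and NFRI 3155, with no overlap between temperatures in any strain. *CYC7* read 0.385, 0.461 and 0.415 in S288C at 30°C and 7.48, 8.46 and 8.04 at 39°C, a 19.0-fold rise (log2 4.25 ± 0.27, adjusted p = 5.59e-08), while the values of 0.39 ± 0.34 and 0.31 ± 0.34 in NFRI 3236 and NFRI 3155 were not called. *CYC1* rose in S288C (log2 0.59 ± 0.19) and, relative to the 75th percentile, fell in NFRI 3236 (-0.79 ± 0.23) and NFRI 3155 (-1.26 ± 0.23). With that shift omitted, the NFRI 3236 value was 0.04 and the NFRI 3155 value of -1.05 was not called. The S288C call was lost without either of 2 arrays and the NFRI 3236 call without any 1 of 3 (adjusted p up to 0.069 and 0.068).

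**Figure D5:**
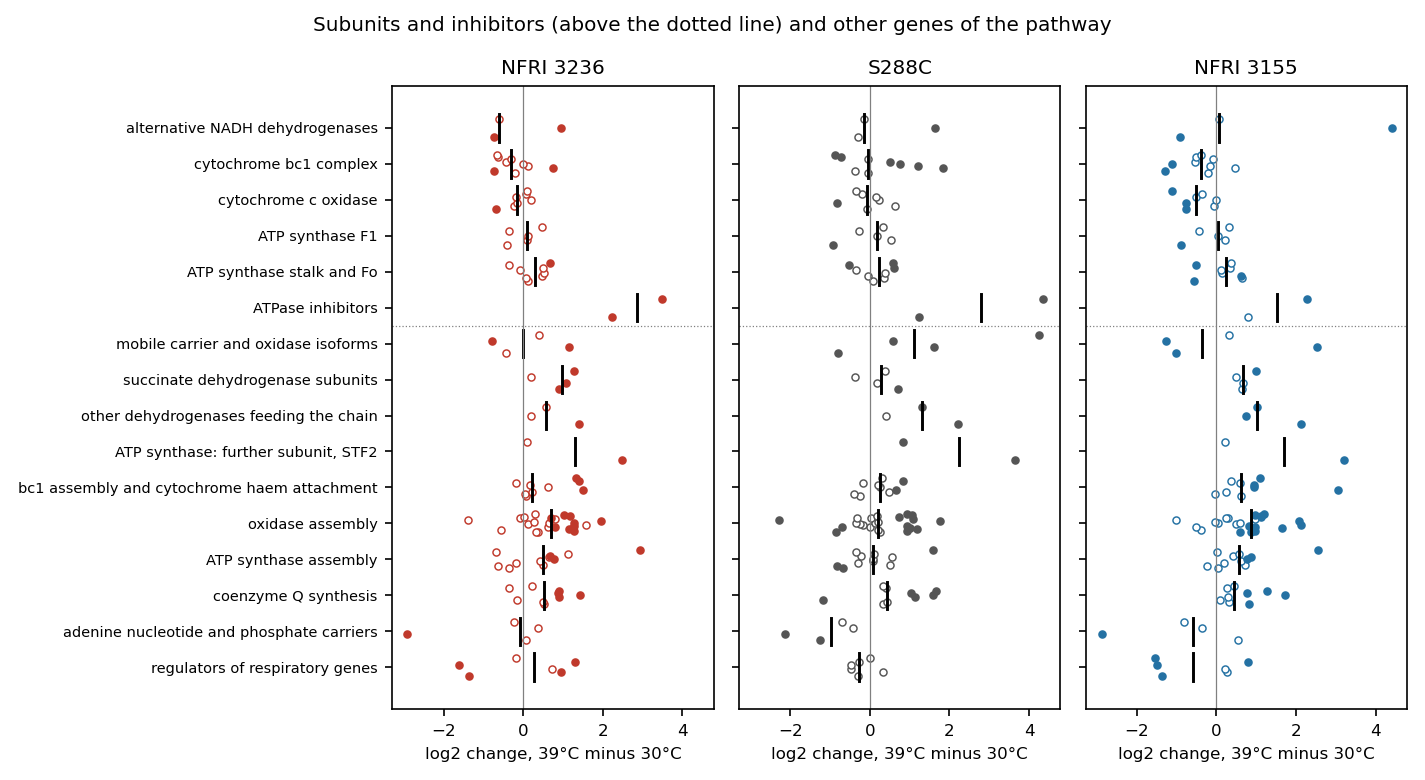
Log2 change at 39°C against 30°C (x axis) in each strain for the members (above the dotted line) and the 75 other measured genes of the pathway, by list. Points are genes, filled where the adjusted p was under 0.05, and bars are list medians. Oxidase assembly genes lie mostly to the right of 0, oxidase subunits around or left of it.

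Among the other named genes, *HAP4*, the regulatory subunit of the activator of respiratory genes, fell in NFRI 3236 (log2 -1.63 ± 0.26) and NFRI 3155 (-1.50 ± 0.26), with -0.48 ± 0.22 in S288C. *HAP1*, the haem-responsive activator, gave -1.37, -0.31 and -1.38 in NFRI 3236, S288C and NFRI 3155 and was called in the NFRI strains. S288C is known to carry a transposon insertion in *HAP1*. *AAC3*, an ADP/ATP carrier gene used at low oxygen, fell in all strains (-2.92, -2.14 and -2.88). The *AAC3* falls passed under all 3 scalings and without any 1 array, whereas those of *HAP4* and *HAP1* passed with quantile normalization but not without the shift.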

How the data were processed

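The deposited values were intensity signals, 1 linear number per probe set of the Affymetrix Yeast Genome 2.0 array, which the authors obtained from labelled material made from mRNA with GCOS at its default settings. The shift to the 75th percentile, the removal of the lowest 20% and the flag filter that the methods describe came after these values. Present and marginal flags were not used here, and the depth of an array cannot be given as a count. The number of arrays limits the precision.

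Of the probe sets, 5498 were named for *S. cerevisiae* genes, 1746 were for *S. pombe*, 166 were controls, 3517 had no name and 1 had several. Signals below 1 were set to 1, log2 was taken and the 75th percentile of all probe sets on the array was subtracted. Genes had to exceed the array's 20th percentile on every array of at least 1 group. Where a gene had several probe sets, the brightest was taken. Group means of the 6 groups were fitted in 1 model with limma 3.58.1 in R 4.3.3, and two-sided p-values were adjusted by Benjamini-Hochberg over 5443 genes, with calls at an adjusted p under 0.05. The median residual SD after shrinkage was 0.24 for the members. The procedure was checked on simulated data.

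Alternatives were no shift, quantile normalization, the percentile over *S. cerevisiae* probe sets, 16 added to each signal, other filters, the mean of probe sets, a replicate block, fits of 1 strain, the methods' t-test with and without adjustment, and each array left out. For the other pathway genes these were chosen after seeing the data. The members and lists were chosen with earlier results of these data known. By the rule for named genes, values on every array are given for the NADH dehydrogenases and inhibitors, per complex for the 2 members with the largest and the 1 with the smallest mean absolute change at 39°C, for members whose heat responses differed between strains, and for the 3 largest strain differences at 30°C. Of the other genes, at most 2 per list with the largest mean change were named, plus *CYC1*, *CYC7*, *COX5A*, *COX5B* and *HAP4*. The array values of *COX6*, *ATP16* and *QCR8* belong to the smallest changes. Promoter sequences were not analysed here.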

Additional observations from a re-analysis of the deposited data

Results flagged for a closer look

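The following results are given because the heat response, the log2 change at 39°C against 30°C, differed between 2 strains by limma's test of that difference (adjusted p under 0.05). Groups of 2 or 3 arrays are too small for a check for single outlying arrays. The 3 comparisons share strains. Among the members, the response in NFRI 3236 minus that in S288C was -1.07 for *QCR2* and -1.11 for *QCR10*. The response in S288C minus that in NFRI 3155 was -2.78 for *NDE2*, 1.35 for *QCR2*, 1.88 for *QCR6*, 1.05 for *QCR7*, 1.37 for *QCR10*, 0.94 for *CYT1* and 2.08 for *STF1*. For *NDE2* the response in NFRI 3236 minus that in NFRI 3155 was -3.47.

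Among the other named genes of the pathway, NFRI 3236 minus S288C gave -1.39 for *CYC1*, -3.86 for *CYC7*, 1.32 for *AAC1*, an ADP/ATP carrier gene, and -1.06 for *HAP1*. S288C minus NFRI 3155 gave 1.86 for *CYC1*, 3.94 for *CYC7*, -2.39 for *CBP4*, -1.81 for *AAC1* and 1.07 for *HAP1*. *CBP4* also differed between NFRI 3236 and NFRI 3155, by -1.54. The *CYC7* differences in both comparisons, the *CYC1* differences in both, and the *CBP4* and *AAC1* differences between S288C and NFRI 3155 kept their calls without any 1 array. The *AAC1* and *HAP1* differences between NFRI 3236 and S288C were lost without any 1 of 8 and 11 arrays, and the *CBP4* difference between the NFRI strains without any 1 of 11. The *HAP1* difference between S288C and NFRI 3155 was lost without any 1 of 6 arrays. Without the 75th percentile shift, only *CYC7* in both comparisons and *CYC1* in S288C minus NFRI 3155 kept their calls among these other genes.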

How the results depend on the processing

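Of 9270 values of single members under the alternatives, 8742 kept their call and direction, 350 lost a call, 148 gained one and 30 changed direction. Leaving out 1 array accounted for 217 of the lost calls and omitting the 75th percentile shift for 36, and 29 of the changes of direction came without the shift. Without the 75th percentile shift, rises and falls at 39°C numbered 9 and 0 in NFRI 3236, 14 and 0 in S288C and 2 and 0 in NFRI 3155, with member medians of 0.87, 0.71 and 0.095. For the differences of heat responses, 0 were lower for NFRI 3236 minus S288C (median 0.14), 2 were higher for S288C minus NFRI 3155 (median 0.60), and the median for NFRI 3236 minus NFRI 3155 was 0.79. At 30°C, 10 were higher and 1 lower in NFRI 3236 than in S288C (median 0.71), 26 and 0 in NFRI 3155 than in S288C (median 1.18), and 1 lower in NFRI 3236 than in NFRI 3155 (median -0.56). At 39°C the corresponding counts were 11 and 0 (median 0.80), 0 lower (median 0.59) and 1 lower (median 0.32). Over all 5443 genes without the shift, 38 responses were lower for NFRI 3236 minus S288C and 140 higher for S288C minus NFRI 3155. The 39°C comparisons then gave 2994 genes higher and 104 lower, 217 lower, and 88 lower. Called members whose value turned positive were, at 39°C against 30°C, *NDE1* (0.10), *CYT1* (0.11) and *COX12* (0.16) in NFRI 3236 and *ATP5* (0.080) in S288C. Against S288C at 30°C they were *NDE1* (0.15), *ATP4* (0.063), *ATP7* (0.12), *ATP14* (0.046) and *ATP18* (0.14) in NFRI 3236 and *ATP7* (0.29), *ATP18* (0.53) and *ATP19* (0.12) in NFRI 3155. In NFRI 3155, *COX6* (1.04), *COX9* (1.03), *ATP1* (0.98), *ATP15* (0.98), *ATP16* (0.97) and *ATP14* (1.03) turned from below 0 to a call above it. Against S288C at 39°C they were *COX13* (0.032), *ATP4* (0.20), *ATP7* (0.44), *ATP14* (0.34), *INH1* (0.078) and *STF1* (0.13) in NFRI 3236, where *QCR9* (1.05), *COX9* (1.13) and *ATP2* (1.07) turned to a call above 0, and *QCR7* (0.0090) and *QCR10* (0.012) in NFRI 3155. The fall of *CYC1* in NFRI 3236 became 0.045. With 16 added to each signal, *CYB2* gave -1.03 for S288C minus NFRI 3155. The shift sets the level against which a change is read, and no other cause was tested.

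With quantile normalization the rises and falls were 9 and 0 in NFRI 3236 (median 0.27), 14 and 3 in S288C (median 0.43) and 7 and 4 in NFRI 3155 (median 0.081), 4 responses were lower in NFRI 3236 than in S288C, and levels in NFRI 3236 against S288C gave 1 higher at 30°C (median -0.38) and 12 lower at 39°C. With the percentile over *S. cerevisiae* probe sets the same comparison gave 1 higher at 30°C (median -0.38) and 1 higher at 39°C. Over all genes, quantile normalization gave 277 responses lower in NFRI 3236 than in S288C, 676 levels higher at 30°C and 785 lower at 39°C. The *S. cerevisiae* percentile gave 525 of all genes higher at 30°C and 607 at 39°C. For NFRI 3236 against NFRI 3155 at 39°C, 2 were higher with 16 added and 1 with only genes above background on all arrays. That filter left out *NDE2* and so gave 0 lower for both differences of heat responses with NFRI 3155. With only the arrays of 1 strain, NFRI 3236 gave 3 rises and 0 falls and NFRI 3155 5 falls. The methods' t-test gave 3 falls in NFRI 3155, and after Benjamini-Hochberg 0 rises and 0 falls in both NFRI strains and 5 rises in S288C. The cause of these changes was not tested.

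Samples with the same replicate number correlated at -0.079 in NFRI 3236, 0.021 to 0.052 in S288C and -0.009 in NFRI 3155 in their deviations from the group means. Over the members alone the values were -0.22, -0.033 to 0.14 and -0.19. With 2 arrays per group the deviations mirror each other, so each NFRI strain gives only 1 value. Such values cannot show whether samples with the same number came from a shared culture or day. With the replicate block, 1 fall was called in NFRI 3236, 0 responses were lower in NFRI 3236 than in S288C, 2 levels were lower in NFRI 3236 than in NFRI 3155 at 30°C, and 1 was higher in NFRI 3236 than in S288C at 39°C.

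With each array left out in turn, NFRI 3236 gave 3 to 6 rises and 0 to 4 falls (3 and 0 without its 30°C replicate 1) and NFRI 3155 gave 1 to 10 falls (1 without its 30°C replicate 2). For NFRI 3236 minus S288C, 0 to 1 responses were higher and 0 to 3 lower, and for NFRI 3236 minus NFRI 3155 0 to 1 were higher. At 30°C, NFRI 3236 against S288C gave 0 to 4 higher and 1 to 6 lower (0 and 1 without NFRI 3236 replicate 2), NFRI 3155 against S288C 3 to 10 higher and 0 to 3 lower (3 without NFRI 3155 replicate 2, 0 without replicate 1, median 0.041 to 0.23), and NFRI 3236 against NFRI 3155 1 to 5 lower (median -0.38 to -0.18). At 39°C, NFRI 3236 against S288C gave 1 to 2 higher and 1 to 9 lower (1 without NFRI 3236 replicate 1), NFRI 3155 against S288C 6 to 11 lower, and NFRI 3236 against NFRI 3155 0 to 2 higher and 1 to 4 lower (median -0.24 to 0.015). *QCR8* in S288C ranged from -0.42 to 0.59. The cause was not tested.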

Other observations

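Genes that feed or supply the chain also moved at 39°C. Of the 9 genes measured for coenzyme Q synthesis, 4 rose in each strain, where 15.7%, 25.2% and 18.1% of all genes rose in NFRI 3236, S288C and NFRI 3155. *COQ4*, which organises that synthesis, rose 2.68-fold, 3.02-fold and 3.30-fold in NFRI 3236, S288C and NFRI 3155, and *COQ6*, a hydroxylase gene, rose 1.87-fold, 3.15-fold and 2.43-fold. *CYB2*, the L-lactate dehydrogenase that passes electrons to cytochrome c, rose 2.63-fold, 4.62-fold and 4.38-fold from low levels. Its relative signal was 0.141 and 0.140 against 0.431 and 0.318 in NFRI 3236, 0.115, 0.0528 and 0.0456 against 0.270, 0.328 and 0.307 in S288C, and 0.501 and 0.547 against 1.96 and 2.68 in NFRI 3155. One S288C array at 30°C was below background for *CYB2*. *NCA3*, a gene known to affect expression of mitochondrially encoded ATP synthase subunits, rose 7.61-fold, 2.98-fold and 5.85-fold. The rises of these 4 named genes passed in all strains with the 75th percentile shift, without it and with quantile normalization. Leaving out either of 2 arrays ended the NFRI 3236 call of *COQ6* (adjusted p up to 0.10), and leaving out 1 ended that of *CYB2* (0.056).

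Of the 4 succinate dehydrogenase subunits, 3, 1 and 1 rose in NFRI 3236, S288C and NFRI 3155, where 15.7%, 25.2% and 18.1% of all genes rose. *SDH4*, encoding a membrane anchor, had log2 changes of 1.26, 0.38 and 0.99. That in S288C was not called and that in NFRI 3155 lost its call without the 75th percentile shift and without either of 2 arrays. The S288C rise was that of *SDH1*, and its call was lost without either of 2 arrays. In NFRI 3236 the *SDH1* call was lost without any 1 of 3 arrays. *PET122*, a translational activator for an oxidase subunit, fell in S288C (log2 -2.28, limma adjusted p = 0.00121). It was above background on 2 of the 3 S288C arrays at 30°C and on none at 39°C. The size of this fall therefore rests on signals at the limit of the array. The changes of -1.38 and -1.03 in NFRI 3236 and NFRI 3155 were not called.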
